A study of Mus musculus with 4 samples.

Results

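The genes described here are CDK inhibitors and targets of the transcription factor p53: Cdkn1a, Cdkn1b, Cdkn1c and Cdkn2c, which encode inhibitors of cyclin-dependent kinases (CDKs), and Mdm2, Ccng1, Bax, Trp53inp1, Sesn2 and Phlda3, which p53 can switch on. All probe sets that the platform annotation ties to these 10 genes were taken, which gave 17 probe sets for 9 of them, of 45037 probe sets that are not controls and 18193 named genes in all. No probe set was named for Bax, whose signal was not analysed here.

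The p53 protein is stabilised by DNA damage and other stress, and Cdkn1a is its best known target for stopping the cell cycle. The product of Cdkn1a, p21, binds cyclin-CDK complexes and holds cells before DNA replication, but p53-independent signals such as TGF-beta can also switch the gene on. Cdkn1b (p27) and Cdkn1c (p57) belong to the same inhibitor family as p21, whereas Cdkn2c (p18) belongs to the INK4 family, which acts on CDK4 and CDK6. In the kidney p21 is known as a gene raised in injured tubules, and p57 as a gene of mature podocytes.

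The kidneys came from female mice of the FVB/NJ background, aged 4.5 months. The 4 groups were diabetic OVE26 transgenic mice after uninephrectomy, diabetic OVE26 transgenic mice after sham surgery, nondiabetic control littermates after uninephrectomy and nondiabetic control littermates after sham surgery. OVE26 mice are diabetic because their transgene acts in the beta cells of the pancreas. Surgery was done at 2 months of age, 10 weeks before the kidneys were taken, and uninephrectomy served to accelerate the disease. Each group is 1 array of RNA pooled from 4 mice, so variation from mouse to mouse was not measured, and every difference between 2 arrays is a value with no replicate check.

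The arrays had median signals between 106.6 and 119. Of 8 kidney markers, 7 had a named probe set and all 7 were expressed. In such whole-tissue RNA, more cells of a type and more RNA per cell cannot be told apart. The control probe sets for the small-subunit ribosomal RNA had 1.88 times the nondiabetic sham level on the diabetic uninephrectomy array, 1.32 times on the diabetic sham array and 1.02 times on the nondiabetic uninephrectomy array. The 9 spike-in probe sets, which measure RNA added by the laboratory in equal amounts, stood at 0.912, 1.24 and 1.19 times the nondiabetic sham level on the same arrays. The 3' to 5' signal ratio of the beta-actin controls was 3.38, 3.72 and 3.49 on these arrays and 2.78 on the nondiabetic sham array. That of the Gapdh controls was 0.906, 1.01, 0.993 and 0.897 in the same order.

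The promoter sequences are shown because they ask, on the DNA side, which of these genes carry the sequence that p53 recognises close to an annotated start. The p53 consensus decamer, the 10-base unit of which p53 binds a pair, was searched on both strands of windows from 250 bases before to 50 bases after each RefSeq start site (build GRCm38.p6). Of 32851 such windows in the genome 8.36% held at least 1 decamer. Windows were present for 8 of the 10 genes, all but Cdkn1c and Trp53inp1, with 2 each for Cdkn1a and Cdkn2c. Of these 10 windows 4 held it, those of Bax, Mdm2, Ccng1 and the upstream start of Cdkn1a. The windows of Phlda3, Sesn2, Cdkn1b, Cdkn2c and the downstream start of Cdkn1a had no match, which says only that these letters are not there.

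The 250 bases before the start are printed for 4 windows, 5′ to 3′ on the strand of the gene. Capitals mark the p53 decamer in the first 3, and in the last one GGGCGG, the core of the GC box bound by Sp1.
Cdkn1a, upstream start, chr17:29090729-29090978, plus strand: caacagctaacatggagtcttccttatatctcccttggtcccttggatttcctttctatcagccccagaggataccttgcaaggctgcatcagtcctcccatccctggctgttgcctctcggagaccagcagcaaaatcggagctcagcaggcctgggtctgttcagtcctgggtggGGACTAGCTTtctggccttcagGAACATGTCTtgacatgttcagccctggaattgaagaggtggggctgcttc
Ccng1, chr11:40755287-40755536, minus strand: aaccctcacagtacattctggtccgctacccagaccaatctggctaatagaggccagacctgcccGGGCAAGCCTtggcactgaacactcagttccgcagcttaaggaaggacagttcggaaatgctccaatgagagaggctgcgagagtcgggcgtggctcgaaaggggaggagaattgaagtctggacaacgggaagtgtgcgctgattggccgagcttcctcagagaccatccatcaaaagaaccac
Mdm2, chr10:117710759-117711008, minus strand: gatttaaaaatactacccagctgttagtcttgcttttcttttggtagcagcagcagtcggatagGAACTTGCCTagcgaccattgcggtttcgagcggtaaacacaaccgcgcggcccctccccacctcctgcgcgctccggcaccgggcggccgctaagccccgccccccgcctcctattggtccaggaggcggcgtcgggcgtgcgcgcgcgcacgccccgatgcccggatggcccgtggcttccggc
Cdkn1a, downstream start, chr17:29093519-29093768, plus strand: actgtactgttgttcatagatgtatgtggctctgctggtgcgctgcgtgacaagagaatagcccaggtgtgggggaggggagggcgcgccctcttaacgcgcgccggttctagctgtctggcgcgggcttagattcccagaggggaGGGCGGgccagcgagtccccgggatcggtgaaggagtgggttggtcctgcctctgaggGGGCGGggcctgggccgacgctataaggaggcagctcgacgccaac
The 2 annotated start sites of Cdkn1a lie 2790 bases apart. The upstream window held 2 decamers, GGACTAGCTT beginning at -73 and GAACATGTCT beginning at -51, where -1 is the last base before the start. Ccng1 had GGGCAAGCCT beginning at -185 and Mdm2 had GAACTTGCCT beginning at -186. The downstream Cdkn1a window held no decamer and 2 copies of GGGCGG, a hexamer found on either strand in 35.7% of all windows. A match is a description of the sequence and not a site shown to be bound in these kidneys.

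In diabetic kidneys Cdkn1a and Ccng1 rose, and the other 7 genes did not pass the test. Cdkn1a was at least 2-fold higher with diabetes both after uninephrectomy and in sham mice. No other of the 9 genes was 2-fold higher or lower in either arm. Past 2-fold in the uninephrectomy arm lay 2.14% of all expressed genes upward and 1.04% downward, and in the sham arm 0.794% upward and 0.446% downward. Past 1.5-fold lay 10 of the 36 differences of these genes over the 4 pairs of arrays, against 9.01% of those of all expressed genes. Differences are given on the log2(signal + 26.3) scale, with an offset of 26.3, the signal that 20% of probe sets do not exceed. A gene is represented by its brightest probe set, and a gene or probe set counts as expressed when its mean log2 value reaches 7.06, a signal of about 106.7. All 9 genes were expressed, as were 14 of the 17 probe sets. The test was a limma fit of diabetes and surgery to all 11206 expressed genes, with genes passing at a Benjamini-Hochberg adjusted p below 0.05. By this rule 1.47% of all genes rose and 0.732% fell with diabetes, against 2 of the 9 genes that rose and 0 that fell. At an unadjusted p below 0.05 in limma the count was 5 of 9, against 9.48% of all expressed genes in either direction. Of these 5, Cdkn1a, Ccng1, Phlda3 and Trp53inp1 were higher with diabetes and Cdkn1c was lower. Since 4 arrays leave 1 residual degree of freedom, limma's standard errors borrow almost all their information from genes of similar signal. The residual of each gene is the disagreement between its 2 arms. The standard errors and p-values therefore do not measure spread between replicate mice or replicate arrays.

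**Figure D1:**
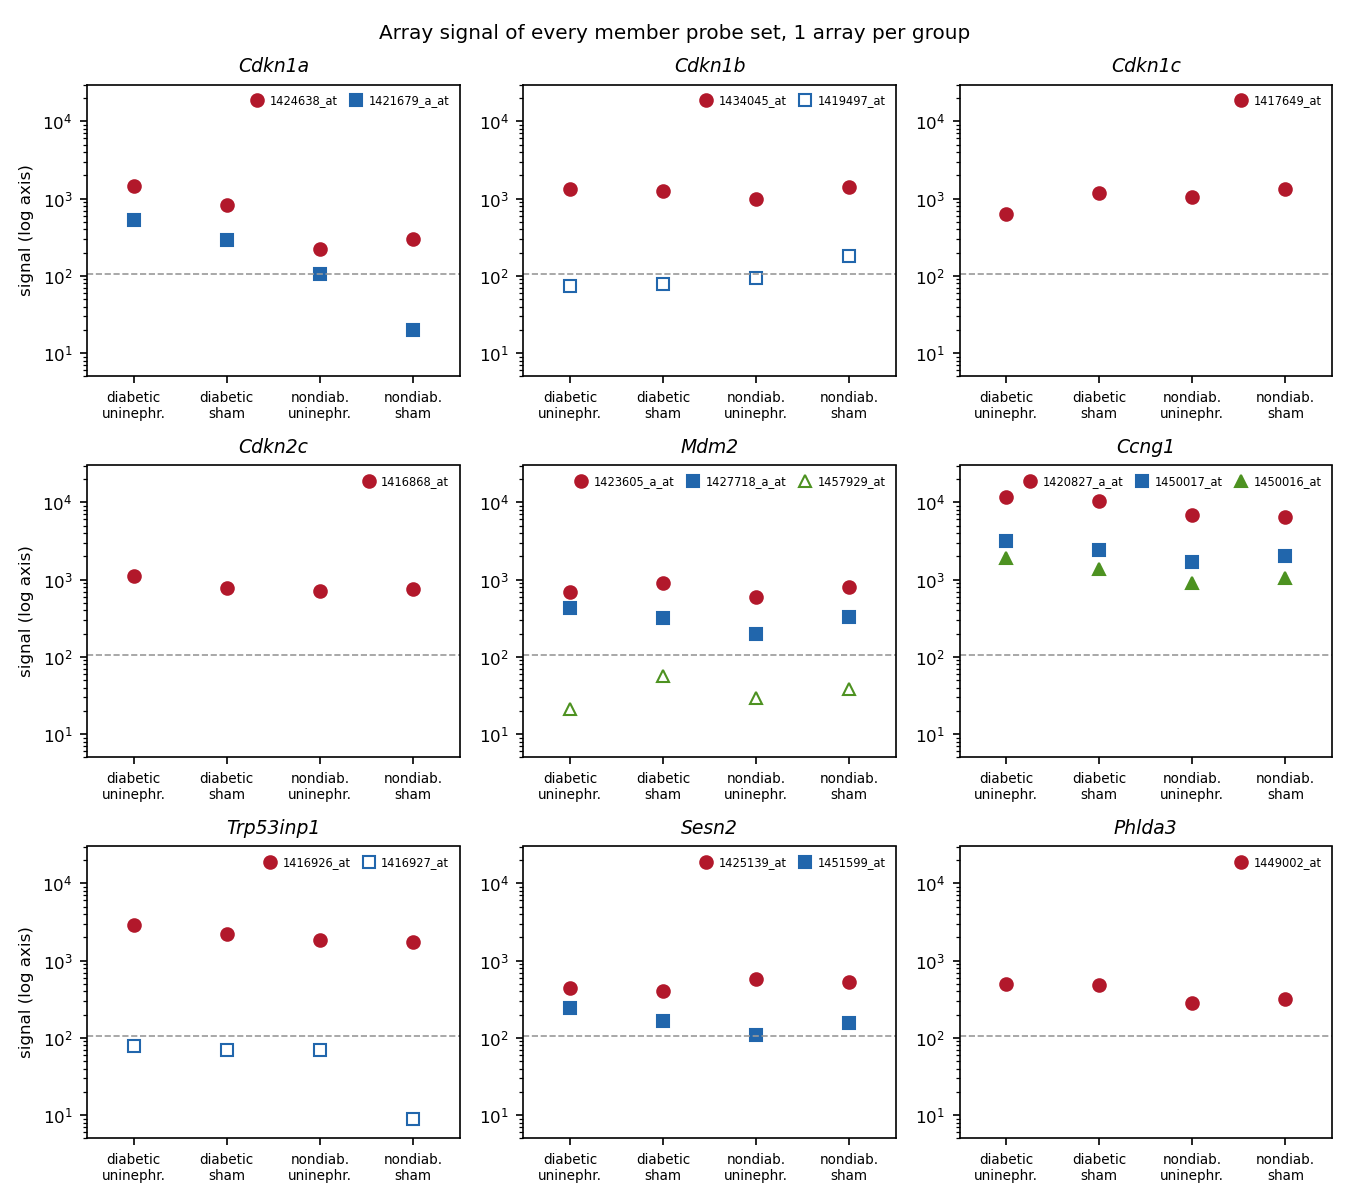
Array signal (log axis) of the 17 probe sets of 9 genes on the 4 arrays, 1 point per probe set and array; open symbols are probe sets below the expression threshold, drawn as a dashed line at a signal of 106.7. Both Cdkn1a probe sets and all 3 Ccng1 probe sets are higher on the 2 diabetic arrays than on the 2 nondiabetic ones.

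Cdkn1a had signals of 1438 in diabetic uninephrectomy and 815 in diabetic sham mice, against 225 in nondiabetic uninephrectomy and 302 in nondiabetic sham mice. The diabetic and nondiabetic arrays did not overlap, and the highest and lowest arrays were both uninephrectomy arrays. Here and for the genes below, the share of all genes separated this way was not counted. Upward separation needs both arms to be positive, as for 26.3% of all expressed genes, so separation alone says little. Cdkn1a rose by 1.95 ± 0.22 on average over both arms (limma SE, 4 arrays, adjusted p = 6.69e-09), the third highest of the 11206 expressed genes. It was made of 2.54 after uninephrectomy and 1.36 in sham mice. The call was lost when limma used 1 prior variance for all signal levels (adjusted p = 0.167), a setting under which 0 of 11206 genes passed for diabetes. The gene's own residual SD was 0.59, against the 0.22 that limma used.

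The second Cdkn1a probe set had signals of 530 and 291 in diabetic uninephrectomy and diabetic sham mice, against 104 and 19.7 in nondiabetic uninephrectomy and nondiabetic sham mice. It too separated diabetic from nondiabetic arrays. With probe sets tested singly over 19364 expressed probe sets, the first passed limma (adjusted p = 0.00469). The second met the expression threshold only through the diabetic arrays, so its values are given without a call. The probe sets did not share the order of the arms: the second differed by 2.09 after uninephrectomy and by 2.79 in sham mice. Diabetes therefore differed by 1.19 more after uninephrectomy than in sham mice on the first probe set, and by -0.70 on the second. Both nondiabetic signals of the second probe set lie under the expression threshold, so the size of its differences depends on the offset. The spike-in probe sets moved along the same contrast, by -0.38 with diabetes after uninephrectomy and 0.31 in sham mice, and their part in it was not tested. With 4 arrays and 4 groups this contrast has no residual and no test.

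Ccng1 encodes cyclin G1, a p53 target that recruits a phosphatase to MDM2. Its signals were 11900 in diabetic uninephrectomy and 10473 in diabetic sham mice, against 6960 in nondiabetic uninephrectomy and 6382 in nondiabetic sham mice. Both diabetic arrays lay above both nondiabetic ones. It rose by 0.74 ± 0.16 (limma SE, 4 arrays, adjusted p = 0.00349), with 0.77 after uninephrectomy and 0.71 in sham mice. The other Ccng1 probe sets gave 0.90 and 1.03 after uninephrectomy and 0.27 and 0.38 in sham mice, so all 3 were higher with diabetes in both arms. The call did not hold with the mean of the 3 probe sets (adjusted p = 0.224), without the expression filter (0.176), with probe sets tested singly (0.0616) or without the trend (0.246).

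Phlda3 encodes a small lipid-binding protein that holds back the kinase AKT. Its signals were 490 in diabetic uninephrectomy and 489 in diabetic sham mice, against 280 in nondiabetic uninephrectomy and 318 in nondiabetic sham mice. The diabetic arrays lay apart from the nondiabetic ones and nearly equal to each other. The mean difference of 0.67 ± 0.24 did not pass limma over all genes (adjusted p = 0.164), with a 95% interval of 0.20 to 1.14.

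Trp53inp1 encodes a nuclear protein that works with p53 in stress and cell death. Its signals were 2864 in diabetic uninephrectomy and 2194 in diabetic sham mice, against 1872 in nondiabetic uninephrectomy and 1733 in nondiabetic sham mice. The arrays again fell into non-overlapping pairs by diabetes. The mean difference was 0.47 ± 0.15 (limma SE, adjusted p = 0.114), with a 95% interval of 0.16 to 0.78. Its other probe set was below the threshold, at 78.2, 70.5 and 69.4 on 3 arrays and 8.8 in nondiabetic sham mice.

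Mdm2, the ubiquitin ligase that degrades p53 and is itself switched on by it, did not separate the arrays by diabetes. Its brightest probe set had 692 in diabetic uninephrectomy and 915 in diabetic sham mice, against 588 in nondiabetic uninephrectomy and 807 in nondiabetic sham mice. The mean difference was 0.20 ± 0.19 (limma SE, adjusted p = 0.914), with a 95% interval of -0.18 to 0.58. The second Mdm2 probe set was 1.01 higher with diabetes after uninephrectomy and -0.02 in sham mice. The third, below the threshold, had differences of -0.23 and 0.36 in these arms.

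Sesn2 encodes sestrin 2, a stress protein that restrains mTORC1 and is a target of both p53 and ATF4. Its probe sets pointed in opposite directions. The brighter one had 440 in diabetic uninephrectomy and 403 in diabetic sham mice, against 570 in nondiabetic uninephrectomy and 532 in nondiabetic sham mice. The dimmer one had 247 and 165 in these diabetic groups, against 109 and 154 in these nondiabetic groups. Their mean differences with diabetes were -0.37 ± 0.22 and 0.55 ± 0.31, and neither passed limma (adjusted p = 0.694 over genes for the first and 0.775 with probe sets tested singly for the second).

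**Figure D2:**
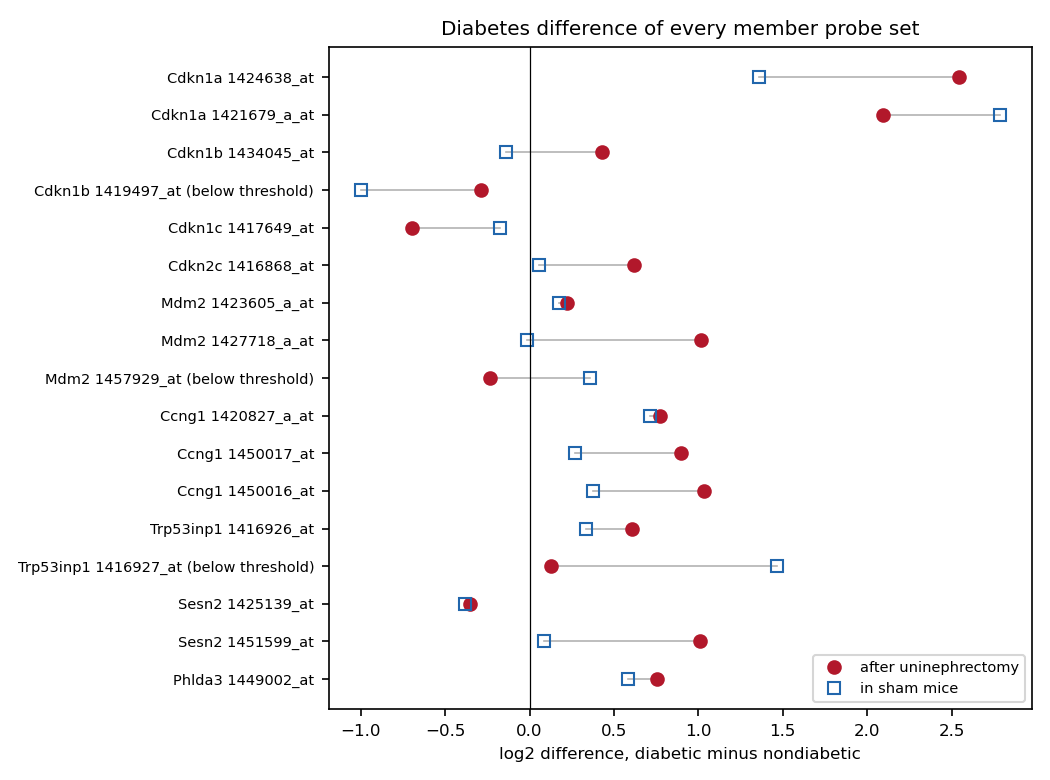
Log2 difference between diabetic and nondiabetic mice for each of the 17 probe sets, after uninephrectomy (filled circles) and in sham mice (open squares), 2 arrays per difference. Both Cdkn1a probe sets lie above 1.3 in both arms but in opposite order, while the 2 Sesn2 probe sets and the Mdm2 probe sets disagree.

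As a group, the 5 measured p53 targets other than Cdkn1a had a median difference with diabetes of 0.47, made of medians of 0.61 after uninephrectomy and 0.34 in sham mice, while the medians of all expressed genes were -0.00, -0.01 and 0.01. Of these 5 genes 4 were higher and 1, Sesn2, was lower in both arms. Both arms were positive for 26.3% and negative for 26% of all expressed genes, and 47.6% had arms of opposite sign. By probe set, 7 of 9 expressed p53 target probe sets were higher in both arms, against 24.8% of all expressed probe sets, but 3 of the 9 belong to Ccng1. All 9 had a higher (more positive) difference after uninephrectomy than in sham mice, as had 50.1% of all expressed probe sets. For 3 of these 9 the gap was under 0.1. With quantile normalisation this order turned for the brightest Mdm2 probe set (0.204 after uninephrectomy and 0.206 in sham mice). It also turned for the brightest Sesn2 probe set (-0.366 and -0.357). The below-threshold probe sets of Mdm2 and Trp53inp1 had a lower difference after uninephrectomy than in sham mice. Cdkn1a stood above each of the 5 genes: the highest, Ccng1, differed by 0.74 against 1.95.

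The likeness of Cdkn1a to each gene was measured as the Euclidean distance between their log2 values on the 4 arrays, each centred on its mean. Ccng1 was at 1.34, rank 182 of 11205 other genes, Phlda3 at 1.41 (rank 239) and Trp53inp1 at 1.55 (rank 440). Mdm2 was at 1.94 (rank 3050) and Sesn2 at 2.39 (rank 10083). Nearest were Cyp27b1, which encodes the renal enzyme that activates vitamin D (0.34), Cdc20, an activator of the anaphase-promoting complex (0.54), and the chemokine gene Ccl6 (0.57). They were followed by Clca3a1 (0.62), the collagen cross-linking enzyme gene Lox (0.65) and the calcium-binding protein gene S100a4 (0.65). With 4 arrays such a distance describes the profile only. It was not scaled, so the size of a gene's differences counts as well as their pattern. Only the brightest probe set of each gene was used. Distances to the second Cdkn1a probe set, whose arms had the opposite order, were not computed.

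**Figure D3:**
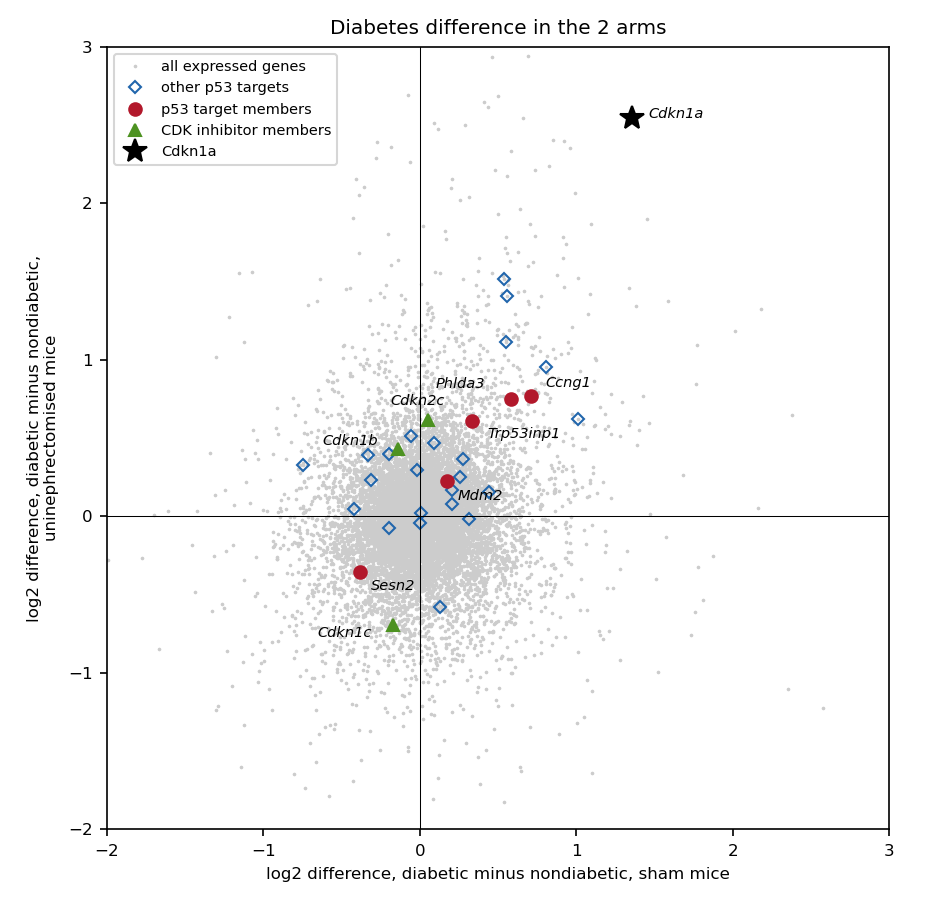
Log2 difference between diabetic and nondiabetic mice in sham mice (x axis) and after uninephrectomy (y axis), 1 point per expressed gene; 6 of 11206 genes fall outside the plotted range. Cdkn1a lies at 1.36 and 2.54, with Ccng1 and Phlda3 at 0.58 to 0.77 on both axes and Sesn2 below 0 on both.

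Of the 3 other CDK inhibitors 0 passed with diabetes, where 1.47% of all expressed genes rose and 0.732% fell. By distance to the Cdkn1a profile Cdkn2c was at 1.65 (rank 642 of 11205), Cdkn1b at 1.88 (rank 2141) and Cdkn1c at 2.66 (rank 10945). Cdkn1b, the inhibitor p27, had signals of 1345 in diabetic uninephrectomy and 1270 in diabetic sham mice, against 993 in nondiabetic uninephrectomy and 1403 in nondiabetic sham mice. Its arms had opposite signs, 0.43 after uninephrectomy and -0.14 in sham mice. Its mean difference was 0.14 ± 0.17 (limma SE, adjusted p = 0.957), with a 95% interval of -0.19 to 0.48, and it became -0.25 when its probe sets were averaged.

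Cdkn2c had 1111 in diabetic uninephrectomy and 788 in diabetic sham mice, against 715 in nondiabetic uninephrectomy and 758 in nondiabetic sham mice. The 3 arrays other than diabetic uninephrectomy lay close together. The mean difference was 0.34 ± 0.19 (limma SE, adjusted p = 0.627), with arms of 0.62 after uninephrectomy and 0.05 in sham mice. The sham arm turned to -0.03 with median centring.

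Cdkn1c ran the other way, with 634 in diabetic uninephrectomy and 1190 in diabetic sham mice, against 1042 in nondiabetic uninephrectomy and 1345 in nondiabetic sham mice. The diabetic uninephrectomy array was the lowest, and diabetic and nondiabetic signals overlapped. Averaged over both arms, diabetic mice differed by -0.43 ± 0.18 (limma SE, adjusted p = 0.295), with a 95% interval of -0.79 to -0.08. Of the INK4 inhibitors outside the 10 genes, only Cdkn2d was expressed, at -0.12 ± 0.21 (limma SE, adjusted p = 0.985). Cdkn2a had signals between 5.3 and 29.5, under the threshold on all 4 arrays. Cdkn2b, below the threshold on average, had 219 in diabetic uninephrectomy and 167 in diabetic sham mice, against 7.8 in nondiabetic uninephrectomy and 157 in nondiabetic sham mice.

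The set of p53 targets was widened to 30 further genes, of which 23 were expressed. Of these 4 rose with diabetes and 0 fell in limma, against 1.47% and 0.732% of all expressed genes, and 19 did not pass. The list median was 0.15, with 0.29 after uninephrectomy and 0.13 in sham mice, beside -0.00, -0.01 and 0.01 for all expressed genes. In both arms 12 were higher and 1 was lower, and the arms of the other 10 had opposite signs. Over all expressed genes these shares were 26.3%, 26% and 47.6%.

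Ddit4, an inhibitor of mTORC1 that hypoxia and glucocorticoids also switch on, rose by 1.03 ± 0.23 (limma adjusted p = 0.00299). Its signals were 875 in diabetic uninephrectomy and 571 in diabetic sham mice, against 289 in nondiabetic uninephrectomy and 385 in nondiabetic sham mice. Pmaip1, which encodes the pro-apoptotic protein NOXA, rose by 0.98 ± 0.18 (limma adjusted p = 0.000192). Its signals were 1994 in diabetic uninephrectomy and 1243 in diabetic sham mice, against 736 in nondiabetic uninephrectomy and 835 in nondiabetic sham mice. For both genes the diabetic arrays were the 2 highest.

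Ephx1, a microsomal epoxide hydrolase also known as a xenobiotic response gene, rose by 0.88 ± 0.16 (limma adjusted p = 0.000124). It had 2345 in diabetic uninephrectomy and 2596 in diabetic sham mice, against 1199 in nondiabetic uninephrectomy and 1470 in nondiabetic sham mice. Plk2, a polo-like kinase, rose by 0.83 ± 0.20 (limma adjusted p = 0.00811). It had 1008 in diabetic uninephrectomy and 781 in diabetic sham mice, against 451 in nondiabetic uninephrectomy and 524 in nondiabetic sham mice. With median centring 2 of the 4 passed, Ephx1 and Pmaip1, with probe sets tested singly 1, Ephx1, and none of the 4 passed in limma without the expression filter, with averaged probe sets or without the trend.

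Bbc3, which encodes the pro-apoptotic protein PUMA, had a difference of 0.81 ± 0.37 that did not pass limma (adjusted p = 0.426). It had 123 in diabetic uninephrectomy and 187 in diabetic sham mice, against 71.1 in nondiabetic uninephrectomy and 79.7 in nondiabetic sham mice. Bbc3 thus met the expression threshold only through the diabetic arrays, and the counts of further p53 targets above include it. The nuclease gene Aen, the RNA-binding protein gene Zmat3 and the apoptosome gene Apaf1 had differences of 0.32, 0.30 and 0.28 and adjusted p between 0.722 and 0.921 in limma. The remaining 7 genes were not tested, Gdf15 because no probe set was named for it and 6 because they were below the threshold. Of these 6, named after their values were seen, Eda2r had 188 in diabetic uninephrectomy and 144 in diabetic sham mice, against 39.1 in nondiabetic uninephrectomy and 77.2 in nondiabetic sham mice. Pidd1 had 137 and 117 in these diabetic groups, against 72.5 and 55.9 in these nondiabetic groups. Gtse1, Rprm, Sfn and Tnfrsf10b had signals between 2.5 and 46.3 on all 4 arrays, and those of Gtse1 and Rprm were highest in nondiabetic uninephrectomy mice.

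Of 9 expressed p53 regulators and DNA damage kinases, 0 passed in limma. Trp53, the gene of p53 itself, is not among them: no probe set was named for it. Trp73 was below the threshold. Since 1.47% of all expressed genes rose and 0.732% fell, 0 calls in a list this short say little. Chek1, a kinase of the replication checkpoint, was at 1.01 ± 0.33 (adjusted p = 0.112), with signals of 338 in diabetic uninephrectomy and 170 in diabetic sham mice, against 97.6 in nondiabetic uninephrectomy and 116 in nondiabetic sham mice. Mdm4, a partner of MDM2 that restrains p53, was at -0.30 ± 0.20, and Chek2 and Usp7 were at 0.27 and 0.15. The list median was 0.08.

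**Figure D4:**
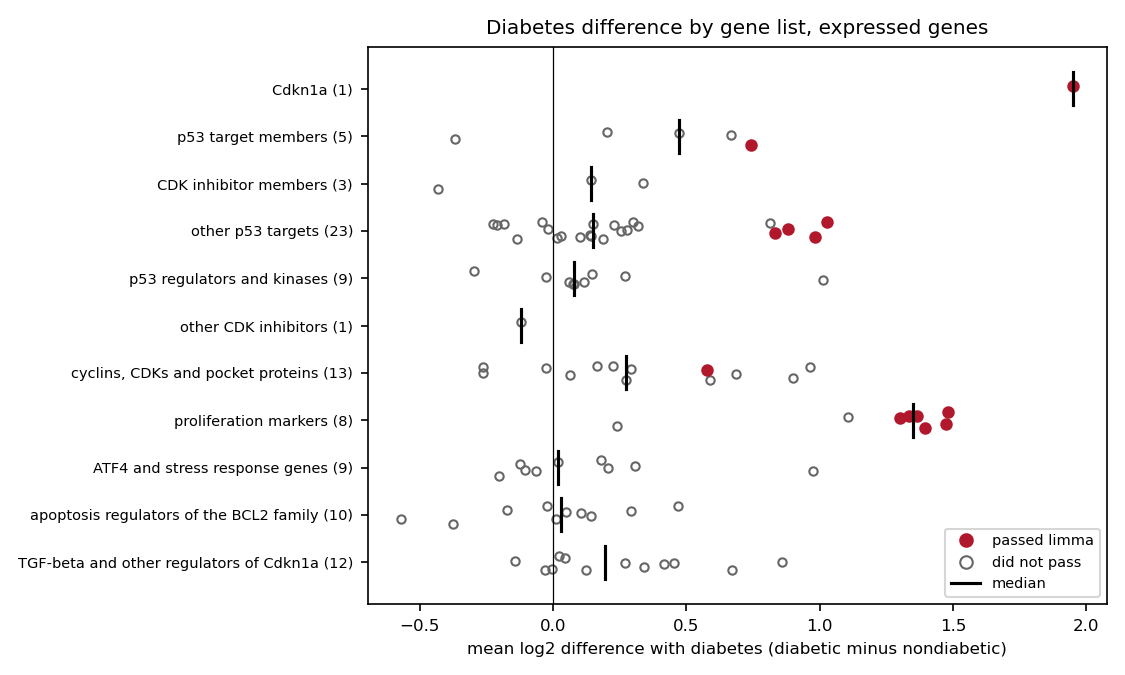
Mean log2 difference with diabetes of each expressed gene, by list (number of expressed genes in brackets), with a bar at the list median; filled points passed limma over all 11206 genes. Of the 8 proliferation markers 6 are filled, against 4 of 23 further p53 targets and 1 of 5 p53 target members. Among the filled markers, Mcm6, Mki67 and Uhrf1 met the expression threshold only through diabetic arrays.

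Some proliferation markers rose on the same arrays as Cdkn1a, whose product slows the cell cycle. Of 14 proliferation markers 8 were expressed, with a median of 1.35. Of these 8, 6 rose with diabetes in limma, against 1.47% of all expressed genes. This count and the median include the calls that are given no weight below. Cdc20 rose by 1.48, and Rrm2 and Mcm5 rose too. The other calls were the replication helicase gene Mcm6 (1.47), Mki67 (1.40) and the DNA methylation factor gene Uhrf1 (1.36). These met the expression threshold only through diabetic arrays, so their calls are given no weight. Uhrf1 had 129 in nondiabetic uninephrectomy and 48.1 in nondiabetic sham mice. Mcm6 had 412 in diabetic uninephrectomy and 98.3 in diabetic sham mice, against 68.3 in nondiabetic uninephrectomy and 48.4 in nondiabetic sham mice, so it met the expression threshold only through 1 array. Mki67 had 451 in diabetic uninephrectomy and 215 in diabetic sham mice, against 148 in nondiabetic uninephrectomy and 69.4 in nondiabetic sham mice. The second Cdkn1a probe set had the same order of arrays, while on the first the nondiabetic uninephrectomy array was the lowest. Without the expression filter, with averaged probe sets or without the trend, 0 proliferation markers passed, though averaging left 3 markers to test. With the stricter filter 1 of the 2 markers left passed, and with probe sets tested singly 3 of 8 passed. The 6 markers below the threshold were divided. Bub1, Aurka and Birc5 were highest in diabetic uninephrectomy mice, and Aurkb, Plk1 and Tyms in nondiabetic uninephrectomy mice.

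Of 13 expressed cyclins, CDKs and pocket proteins 1 rose, against 1.47% of all expressed genes. This was Ccnd1, which encodes cyclin D1, a partner of CDK4 and CDK6 (0.58 ± 0.16, limma adjusted p = 0.0311). It was named after its values were seen. It did not pass with median centring, nor under 4 other alternatives (no filter, averaged or single probe sets, no trend). Ccnb2, Ccna2, Ccne2 and Cdk6 had differences of 0.96, 0.90, 0.69 and 0.59, and none passed limma (adjusted p from 0.108 to 0.617). Ccne2 was above the expression threshold only in diabetic uninephrectomy mice (221), and Ccnb2 was under it in nondiabetic sham mice (66.3). The list median was 0.27.

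Markers of other cell types and of injury were summed over the same arrays. Beside the counts below, 1.47% of all expressed genes rose and 0.732% fell with diabetes in limma. Of 7 expressed injury markers 5 rose, and the summed signal of the 9 measured ones was 19874 in diabetic uninephrectomy and 7121 in diabetic sham mice, against 6552 in nondiabetic uninephrectomy and 6049 in nondiabetic sham mice. Of 10 expressed macrophage markers 2 rose, with summed signals over 12 measured of 19188 in diabetic uninephrectomy and 10448 in diabetic sham mice, against 9727 in nondiabetic uninephrectomy and 11019 in nondiabetic sham mice. Of 4 expressed adipocyte markers 3 rose, with summed signals over 6 measured of 13266 in diabetic uninephrectomy and 26450 in diabetic sham mice, against 5405 in nondiabetic uninephrectomy and 14568 in nondiabetic sham mice. Of 6 endothelial markers 0 passed. The summed signal of the 7 kidney markers was 104869 in diabetic uninephrectomy and 129586 in diabetic sham mice, against 133799 in nondiabetic uninephrectomy and 131163 in nondiabetic sham mice. The 7 measured lymphocyte markers were all below the expression threshold, with sums between 242.6 and 469. The part of these cells in the Cdkn1a difference was not tested.

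Among TGF-beta genes and transcription factors known to act on Cdkn1a, 0 of 12 expressed passed with diabetes in limma, and the list median was 0.20. Of all expressed genes 1.47% rose and 0.732% fell, so 0 calls among 12 say little. Tgfb1 was at 0.67 ± 0.36, with 0.12 after uninephrectomy and 1.23 in sham mice. Klf6, an injury-response factor that can induce Cdkn1a, was at 0.45 ± 0.20, with 1.17 after uninephrectomy and -0.27 in sham mice. Myc, known as a repressor of Cdkn1a, was at 0.86 ± 0.28 and Stat3 at 0.42 ± 0.18, and the adjusted p of these 4 genes lay between 0.103 and 0.595 in limma.

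Uninephrectomy was compared with sham surgery within diabetic and within nondiabetic mice. In limma 0 of the 9 genes passed, and 2, Cdkn1c and Mdm2, had an unadjusted p below 0.05, as had 5.68% of all expressed genes. By the adjusted p 0.33% of all genes rose and 0.178% fell. No gene of the 9 was at least 2-fold different in diabetic or in nondiabetic mice. Of all genes 1.48% were that much higher and 0.669% lower in diabetic mice, and 0.678% higher and 0.527% lower in nondiabetic mice. Cdkn1c differed by -0.62 ± 0.18 (limma SE, adjusted p = 0.101), with -0.88 in diabetic and -0.36 in nondiabetic mice and a 95% interval of -0.97 to -0.27. With the stricter expression filter it passed (adjusted p = 0.0493). Mdm2 was at -0.42 ± 0.19 (limma adjusted p = 0.736), with -0.39 in diabetic and -0.44 in nondiabetic mice. Its second probe set gave 0.37 and -0.66. Of the further p53 targets, p53 regulators, cyclins and proliferation markers 0 passed with uninephrectomy in limma, and the median of the proliferation markers was 0.84, made of 1.09 in diabetic and 0.35 in nondiabetic mice.

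Cdkn1a differed by 0.80 with uninephrectomy in diabetic mice and by -0.39 in nondiabetic mice, a mean of 0.21 ± 0.22 (limma SE, adjusted p = 0.9997) with a 95% interval of -0.24 to 0.65. On its second probe set the differences were 0.81 and 1.51. Both nondiabetic signals of the second probe set lie under the expression threshold, so the sign of its nondiabetic difference is uncertain, while the diabetic difference was nearly the same on both probe sets. With averaged probe sets the mean was 0.68 (limma adjusted p = 0.789). Ccng1, Trp53inp1 and Sesn2 differed by 0.18, 0.38 and 0.12 in diabetic mice and by 0.12, 0.11 and 0.09 in nondiabetic mice, and the nondiabetic values turned to -0.00, -0.02 and -0.03 with median centring. Phlda3 differed by 0.00 and -0.17, and its first value took the other sign with quantile normalisation. Opposite signs in diabetic and nondiabetic mice, as for Cdkn1a, Cdkn1b, Cdkn2c and Phlda3, were found in 52.3% of all genes.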

How the data were processed

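Kidney RNA of 4 groups, 1 pool of 4 mice each, was hybridised to 1 Affymetrix mouse array per group. Labelling started from 100 ng of pooled RNA and used the 3' IVT Express kit, per the labels' protocols. The deposited intensity values are linear, 1 per probe set. How the scans were background-corrected and summarised is not given in the sources used here. Every array had a 2% trimmed mean intensity of 500.003, so the deposited values had already been scaled to a common level.

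Of 45037 probe sets that are not controls, 34945 had 1 gene symbol in the platform annotation, 932 had several and 9160 were unnamed here. Only those with 1 symbol were used. Symbols were checked through the Entrez number in a RefSeq table (GRCm38.p6), which held 34741 and changed 0. Intensities were set to log2(value + 26.3) without further normalisation. The brightest probe set stood for each gene, and 11206 of 18193 genes were expressed. The test was limma 3.58.1 (R 4.3.3) with additive terms for diabetes and surgery, and eBayes with a trend and 57.8 prior degrees of freedom. Tested on data simulated for the diabetes comparison of 11206 genes, it recovered 83% of 100 genes changed by 1 and 100% of 100 changed by 2 on the log2 scale, with 12 false among 195 calls. The simulated noise was normal with limma's own SD, and the effects were purely additive. These rates therefore check the code and are not error rates of the calls on the real arrays. Arms are given without a test, and the number of arrays limits their precision.

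The members and gene lists were chosen with earlier results of these data known. All members were named, as were from each further list the 4 expressed genes (8 for p53 targets) with the largest absolute difference with diabetes, and the 6 genes nearest to Cdkn1a. The settings varied were the scaling (quantile normalisation or median centring), the filter (none, or one at the 75th percentile), averaged or single probe sets, offsets of 1 and of the 40th percentile (72.3), limma without trend, an adjusted p below 0.1 and a 1.5-fold threshold.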

Additional observations from a re-analysis of the deposited data

Results flagged for a closer look

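For 4 of the 9 genes, effects of 1 factor had opposite signs in the 2 levels of the other. These differences between arms were not tested, since each arm is 1 pair of arrays. With uninephrectomy Cdkn1a differed by 0.80 on the log2 scale in diabetic and by -0.39 in nondiabetic mice, but its second probe set, under the expression threshold on both nondiabetic arrays, had positive differences in both. With uninephrectomy Cdkn2c differed by 0.48 in diabetic and by -0.082 in nondiabetic mice, Phlda3 by 0.0034 and -0.17, and Cdkn1b by 0.081 and -0.49. With diabetes Cdkn1b differed by 0.43 after uninephrectomy and by -0.14 in sham mice. Opposite signs are common: 52.3% of all expressed genes had them for uninephrectomy and 47.6% for diabetes.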

How the results depend on the processing

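Changes of the filter, single probe sets, limma without trend and an adjusted p below 0.1 leave the Cdkn1a and Ccng1 differences with diabetes unchanged by construction. Quantile normalisation, median centring, averaged probe sets and the 2 other offsets could change them. Under these the direction held, with Cdkn1a between 1.80 and 2.19 and Ccng1 between 0.68 and 0.76. Cdkn1a lost its call only without limma's trend (1.95, adjusted p = 0.167), and over the alternatives its adjusted p ran from 3.68e-17 to 0.167. The number of members passing with diabetes was 2, and 1 without the expression filter, 1 with averaged probe sets and 0 without the trend (4 at an unadjusted p below 0.05). With uninephrectomy it was 0, and 1 with the stricter filter. Over all genes, 247 passed with diabetes, 88 with median centring, 61 with single probe sets, 13 without the filter, 3 with averaged probe sets and 0 without the trend (906 at an unadjusted p below 0.05). With uninephrectomy 57 passed (37 higher and 20 lower), 115 with quantile normalisation, 90 at an adjusted p below 0.1, 16 with single probe sets, 10 with median centring (5 higher and 5 lower), 4 without the trend, 2 without the filter (0 higher and 2 lower) and 1, lower, with averaged probe sets. Averaged probe sets also moved the Cdkn1a difference with uninephrectomy to 0.68 in place of 0.21, and moved the Cdkn1a difference between arms from 1.19 to 0.25, the median of the other CDK inhibitors from 0.14 to -0.25, and reversed Cdkn1b (-0.25) and Sesn2 (0.091); the probe sets of each gene disagree, as shown above. Counting differences past 1.5-fold in place of 2-fold gave 10 in place of 2 of the 36 differences of the members over the 4 pairs of arrays. Past 1.5-fold lay 9.01% of those of all expressed genes. Median centring shifted the median of all genes by 0.12 with diabetes after uninephrectomy and by -0.13 with uninephrectomy in nondiabetic mice. Where no cause is given, it was not tested. No paired analysis was possible because each group has 1 array. Leaving out an array was not possible either, since the model then has no residual. The number of arrays limits every value, and signals under about 106.7 give differences that depend on the offset.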

Other observations

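Lists of genes next to the p53 response left out genes already listed as p53 targets. Pmaip1, which rose, and Bbc3 also encode BCL2 family proteins but were not in that list. Of the 10 expressed BCL2 family genes listed, 0 passed in limma with diabetes, and their median was 0.03. Of all expressed genes 1.47% rose and 0.732% fell, so 0 calls in lists this short say little. Bik, a pro-apoptotic member, was at -0.57 ± 0.23 (adjusted p = 0.272), Bok at 0.47, Bmf at -0.38 and Mcl1, which protects cells from apoptosis, at 0.29. Of 9 expressed genes of the ATF4 and stress response 0 passed, and their median was 0.02. Atf3, a stress-induced transcription factor gene, had signals of 459.5 in diabetic uninephrectomy and 151 in diabetic sham mice, against 116 in nondiabetic uninephrectomy and 132 in nondiabetic sham mice. It differed by 1.78 after uninephrectomy and 0.17 in sham mice, a mean of 0.97 ± 0.33 (limma adjusted p = 0.125). Chac1, Asns and Herpud1 were at 0.31, 0.20 and -0.20.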
